A study of Mus musculus with 6 samples.

Results

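Transcripts of 10 neutrophil granule and S100 genes were followed in 6 mouse livers, 3 labelled HA and 3 labelled PBS (phosphate-buffered saline). The genes are S100a8, S100a9, Ngp, Camp, Ltf, Retnlg, Csf3r, Cxcr2, Mmp8 and Mmp9, taken by symbol from a table of 16638 genes, and all 10 were found. They were chosen by name with earlier FPKM values of these same HA and PBS livers known, so the differences between the groups are given as a description and support nothing on their own. HA stands for hippuric acid, which is benzoic acid joined to glycine and is named in the series title. Per the series design text it went into the abdomen of an obese mouse model, 2 times a week over 5 weeks, at a dose of 60 mg/kg. How the mice were made obese, their strain, age and sex, and the schedule of PBS are not stated by the labels. Whether each liver is from its own animal is not labelled either, and p-values then measure only how these samples scatter, possibly for technical reasons.

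Neutrophils are short-lived white blood cells that leave the marrow, circulate and enter tissue under infection or injury. Their precursors fill several kinds of granule in turn. Azurophil granules, the first, hold serine proteases and myeloperoxidase. Specific granules hold lactoferrin and the cathelicidin family, and gelatinase granules hold Mmp9. S100A8 and S100A9 pair into calprotectin, a calcium- and zinc-binding protein that fills the cytosol of neutrophils and, at lower levels, of monocytes. In liver, neutrophils are few at rest and are known to collect in steatohepatitis. Granule transcripts such as Ngp, Camp and Ltf are made mainly in marrow precursors and are low in mature circulating cells.

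Promoter stretches are shown for S100a8, S100a9, Ngp and Ltf, the 4 genes whose 3 HA values all lay above their 3 PBS values. Each is the 250 bases before the annotated start, read in the direction of the gene, from RefSeq on build GRCm38.p6; the deposited values were made on GRCm39. Capitals mark 2 short motifs searched on both strands, the C/EBP core TTGCNNAA and the PU.1 core GAGGAA, named for families of factors that act in granulocyte development. No bases of the 2 motifs overlapped in these stretches.
S100a8 (chr3:90668821-90669070, plus strand): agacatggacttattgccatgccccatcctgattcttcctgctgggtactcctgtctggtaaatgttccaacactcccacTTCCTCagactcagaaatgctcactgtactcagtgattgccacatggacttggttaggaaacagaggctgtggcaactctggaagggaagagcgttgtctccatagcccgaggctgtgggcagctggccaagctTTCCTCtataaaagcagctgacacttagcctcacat
S100a9 (chr3:90695722-90695971, minus strand): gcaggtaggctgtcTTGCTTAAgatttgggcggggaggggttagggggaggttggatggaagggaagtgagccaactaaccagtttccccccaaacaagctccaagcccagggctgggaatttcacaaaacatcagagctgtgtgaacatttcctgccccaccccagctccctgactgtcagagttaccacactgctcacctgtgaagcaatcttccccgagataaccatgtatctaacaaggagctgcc
Ngp (chr9:110419558-110419807, plus strand): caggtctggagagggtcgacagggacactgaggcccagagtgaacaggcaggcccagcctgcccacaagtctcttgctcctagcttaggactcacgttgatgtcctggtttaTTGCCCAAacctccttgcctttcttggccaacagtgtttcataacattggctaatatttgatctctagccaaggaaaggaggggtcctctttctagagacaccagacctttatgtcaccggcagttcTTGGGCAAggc
Ltf (chr9:111019042-111019291, plus strand): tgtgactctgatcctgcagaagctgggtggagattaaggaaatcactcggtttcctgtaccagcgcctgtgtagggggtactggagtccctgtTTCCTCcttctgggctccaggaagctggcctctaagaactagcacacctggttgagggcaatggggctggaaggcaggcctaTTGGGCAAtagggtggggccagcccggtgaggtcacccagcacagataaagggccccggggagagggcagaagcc

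Promoters were matched for 9 of the 10 genes, Mmp9 being the exception. The C/EBP letters stood in 5 of the 9, those of S100a9, Ngp, Ltf, Retnlg and Mmp8, with 2 matches in Ngp, and in 9.57% of 32817 promoters of the same length. The PU.1 letters stood in 5 of the 9, with 2 matches in S100a8, and in 23.3% of all. A match is a run of letters and not a shown binding site. S100a8 and S100a9 lie side by side on chromosome 3 with 0 annotated genes between them. Camp, Ngp, Ltf and Mmp8 are on chromosome 9.

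The libraries held 37921444 to 39908844 fragments, recovered from FPKM, which counts fragments by gene length and library depth. The tissue label matched its markers: albumin (Alb) alone took 7.53 to 9.82% of fragments with PBS and 12.5 to 14.7% with HA. In PBS replicate 1 the summed level of 11 adrenal gland and skeletal muscle genes was 103 FPKM, against 0.672 to 1.12 FPKM in the other 5 libraries. The differences of S100a8, S100a9, Retnlg, Csf3r, Cxcr2, Mmp8 and Mmp9 are also given without that library.

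S100a8, one chain of calprotectin, stood at 1.31, 0.511 and 0.267 FPKM in PBS replicates 1 to 3 and at 2.27, 2.07 and 2.89 FPKM in HA replicates 1 to 3. All 3 HA values lay above all 3 PBS values, and the PBS libraries spread more widely than the HA libraries. Means were 0.695 ± 0.544 FPKM in PBS livers and 2.41 ± 0.429 FPKM in HA livers (SD, n = 3 per group), a 3.47-fold difference. Without PBS replicate 1, its highest PBS value, the difference was 6.19-fold. The values rest on 32 fragments in the PBS libraries together and 109 in the HA libraries. On the log2(FPKM + 1) scale, which understates differences of low genes, the HA minus PBS difference was 1.05 (SE 0.22).

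S100a9, the partner chain, stood at 1.66, 0.956 and 0.799 FPKM with PBS and at 2.62, 2.50 and 5.18 FPKM with HA. The groups again did not overlap, with HA replicate 3 well above the other HA livers and PBS replicate 1 the highest of the PBS livers. Means were 1.14 ± 0.459 and 3.43 ± 1.52 FPKM (n = 3), a 3.01-fold difference, or 1.02 on the log2(FPKM + 1) scale (SE 0.25). It was 2.25-fold without HA replicate 3 and 3.91-fold without PBS replicate 1. S100a9 exceeded S100a8 in every library, with FPKM ratios of 1.27, 1.87 and 2.99 in the PBS livers and 1.15, 1.21 and 1.79 in the HA livers. The ratio ranges of the groups overlapped. In bulk liver, more cells of a type and more RNA per cell cannot be told apart.

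**Figure D1:**
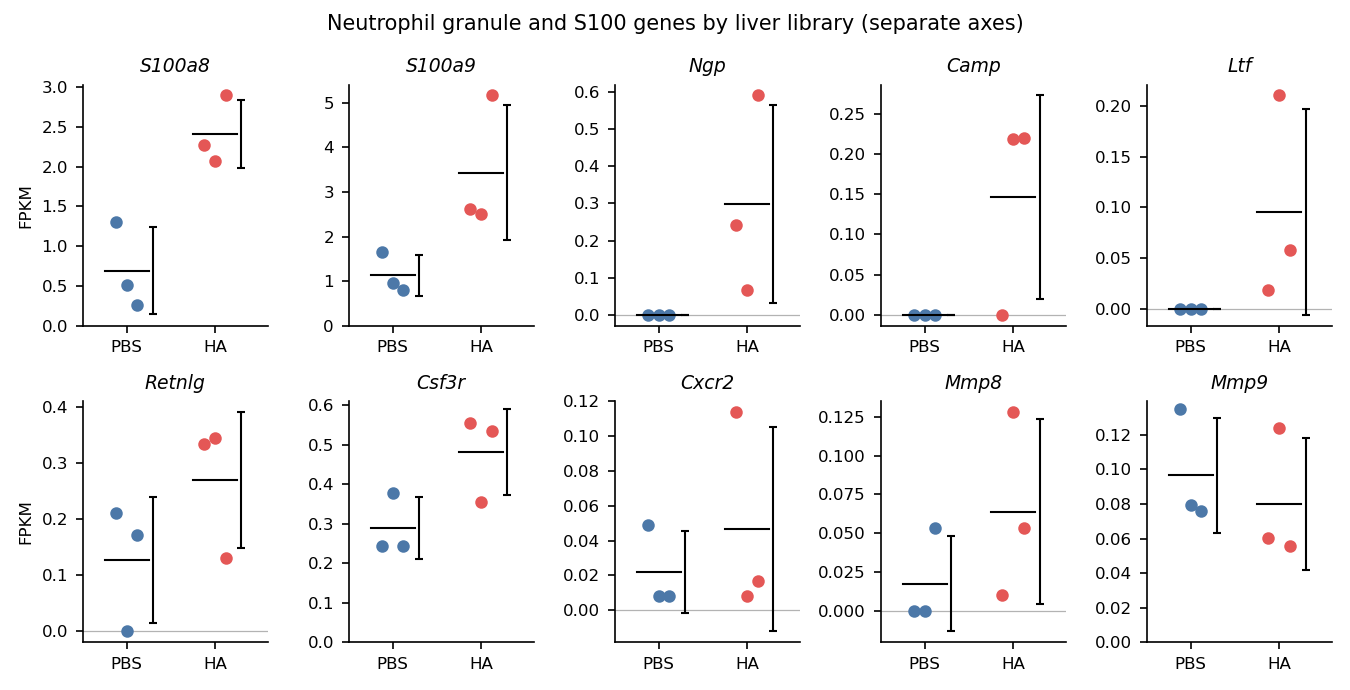
FPKM of each of the 10 genes in the 3 PBS and 3 HA liver libraries, on a separate linear axis per gene; points are libraries, the horizontal line is the group mean and the bar beside it is ± 1 SD. S100a8, S100a9, Ngp and Ltf are the 4 genes whose HA points all lie above the PBS points; Mmp9 alone has the lower HA mean, which turns to 1.03-fold without PBS replicate 1.

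Of the specific granule transcripts, Ngp, Camp and Ltf were scarce and had fragments in HA libraries only. Ngp, neutrophilic granule protein, a relative of the cathelicidins, had 0 fragments in each PBS library. It had 11, 3 and 26 fragments in HA replicates 1 to 3, or 0.241, 0.0676 and 0.591 FPKM. A count of 0 allows up to 3 fragments, which for Ngp is 0.0647 to 0.0676 FPKM per PBS library, so HA replicate 2 sat at that limit and HA replicates 1 and 3 above it. Summed over the group, Ngp had 40 fragments with HA (95% exact Poisson interval 28.6 to 54.5). At equal depth this observed count was 13.5-fold the 3 fragments allowed over all PBS libraries. This fold was 7.05 without HA replicate 3 and 8.92 without PBS replicate 2. Intervals and limits cover counting error only, and the folds over a limit leave out the counting error of the HA count.

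Ltf, lactoferrin, an iron-binding protein of specific granules, also had 0 fragments in each PBS library. In HA replicates 1 to 3 it was at 0.0185, 0.210 and 0.0577 FPKM, all above PBS, with HA replicate 2 the highest. HA replicate 1 lay under the 0.0548 to 0.0573 FPKM that a count of 0 allows in a PBS library. The smallest whole numbers in these ratios are 1, 11 and 3 fragments, and they imply a gene length of 1371 bases. The longest Ltf transcript in GENCODE M21 has 2743 bases, so 2, 22 and 6 fragments on 2742 bases are equally possible. At the smaller counts and equal depth, the observed Ltf count of the HA group was 5.07-fold the 3 fragments allowed over the PBS group. This fold was 3.34 without PBS replicate 2. It was 2.02 without HA replicate 2, where it rests on 1 and 3 fragments. The folds leave out the counting error of the 15 HA fragments, whose exact Poisson interval was 8.40 to 24.7. Camp, which encodes the precursor of the antimicrobial peptide CRAMP, had 0 fragments in all PBS libraries and in HA replicate 1, and 5 in each of HA replicates 2 and 3 (0.218 and 0.220 FPKM). With HA replicate 1 tied at 0, its groups overlapped. At equal depth its 10 observed HA fragments (exact Poisson interval 4.80 to 18.4) were 3.38-fold the same limit. This fold was 2.23 without PBS replicate 2 and 5.13 without HA replicate 1, again without the counting error of the HA count.

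These 3 granule genes did not follow each other among the HA livers. Ngp was highest in HA replicate 3 and lowest in HA replicate 2, where Ltf was highest. HA replicate 1 had Ngp without a Camp fragment. The variance between the HA libraries over that of counting alone, which is 1 for pure counting error, was 10.5 for Ngp, 5.70 for Ltf at the smaller counts and 2.58 for Camp. It was 1.14 for S100a8 and 13.5 for S100a9 in the same livers.

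Retnlg, resistin-like gamma, a secreted protein of mouse neutrophils and marrow, stood at 0.211, 0 and 0.172 FPKM with PBS and at 0.334, 0.344 and 0.130 FPKM with HA. The groups overlapped through HA replicate 3, and the whole set rests on 9 PBS and 19 HA fragments. The 2.11-fold difference of the Retnlg means became 3.13-fold without PBS replicate 1 and 1.41-fold without PBS replicate 2. Csf3r, the receptor for the growth factor G-CSF that drives neutrophil production, was the best counted of the 8 genes other than S100a8 and S100a9, with 157 and 258 fragments. It stood at 0.243, 0.379 and 0.243 FPKM with PBS and at 0.554, 0.356 and 0.535 FPKM with HA. HA replicates 1 and 3 lay above all PBS livers and HA replicate 2 lay below PBS replicate 2. Means were 0.288 ± 0.0782 and 0.482 ± 0.109 FPKM, a 1.67-fold difference, or 1.55-fold without PBS replicate 1.

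Cxcr2, the receptor that draws neutrophils toward CXCL chemokines, had 6, 1 and 1 fragments with PBS and 14, 1 and 2 with HA. The groups overlapped, and the 2.12-fold difference of the means became 0.578-fold without HA replicate 1 and 5.66-fold without PBS replicate 1. Mmp8, neutrophil collagenase, had 0, 0 and 5 fragments with PBS and 1, 12 and 5 with HA, with overlap and a 3.60-fold difference of the means that was 1.80-fold without HA replicate 2 and 2.40-fold without PBS replicate 1. Without PBS replicate 3 every PBS value of Mmp8 was 0. Mmp9, gelatinase B, was the 1 gene of the 10 with the lower mean in HA over all 6 libraries (0.827-fold), and without PBS replicate 1 the direction turned (1.03-fold). It stood at 0.135, 0.0792 and 0.0758 FPKM with PBS and at 0.0602, 0.124 and 0.0555 FPKM with HA, and the groups overlapped. Mmp9 is also made by macrophages.

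Ordered by mean FPKM over the 6 libraries, which corrects for gene length, S100a9 (2.29) and S100a8 (1.55) led, at places 7391 and 8422 of all genes. Csf3r (0.385), Retnlg (0.199) and Ngp (0.150) came next, then Mmp9 (0.0883), Camp (0.0731), Ltf (0.0477), Mmp8 (0.0409) and Cxcr2 (0.0341). S100a8 and S100a9 differed by less than the larger of their SDs in both groups, and so did each neighbouring pair from Ngp down in the HA livers. The order within a group differed from this one. In PBS livers Mmp9 stood above Ngp, Camp, Ltf, Mmp8 and Cxcr2, while in HA livers it stood below Ngp, Camp and Ltf and above Mmp8 and Cxcr2.

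The summed level of the 10 genes was 3.61, 1.93 and 1.62 FPKM in PBS replicates 1 to 3, against 6.22, 6.02 and 9.74 FPKM in HA replicates 1 to 3. Every HA sum exceeded every PBS sum. Means were 2.39 ± 1.07 and 7.33 ± 2.09 FPKM (n = 3), a ratio of 3.07, or 1.62 on the log2 scale. S100a8 and S100a9 made up 65.9 to 82.3% of the sum in PBS livers and 75.8 to 83.0% in HA livers. Without both, the other 8 genes summed to 0.466 to 0.638 FPKM with PBS and 1.33 to 1.66 FPKM with HA, again with no overlap (ratio 2.69). Counted as fragments rather than per length, the 10 genes had 129, 111 and 84 fragments with PBS and 234, 202 and 292 with HA. Of the 10 genes, 6, 5 and 7 had a fragment in PBS replicates 1 to 3, against 9, 10 and 10 in HA replicates 1 to 3. No test is given for these sums, and an exact permutation test of 3 against 3 could not go below a two-sided p of 0.1.

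**Figure D2:**
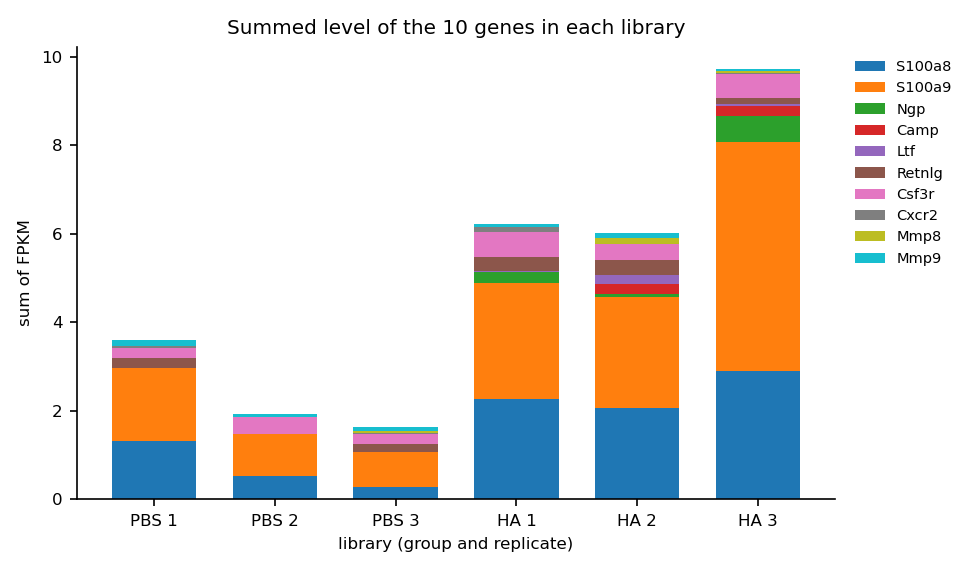
Summed FPKM of the 10 genes in each of the 6 liver libraries (bars, linear axis from 0), split by gene. The 3 HA bars reach 6.02 to 9.74 FPKM and the 3 PBS bars 1.62 to 3.61 FPKM, and S100a8 and S100a9 form most of every bar.

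Only S100a8 and S100a9 averaged 0.5 FPKM or more across the libraries and so entered the model across all genes; the other 8 were under that filter. Of the 2, 0 passed in limma (adjusted p = 0.0801 for S100a8 and 0.107 for S100a9, Benjamini-Hochberg over all genes tested), where 86 of 10745 genes, 0.800%, were called, 0.289% higher and 0.512% lower with HA. At an unadjusted p under 0.05 both passed, as did 17.7% of all genes tested (4.61% of all in the higher direction). With no filter 0 of the 10 passed in limma, where 0.102% of all genes were called. In that fit 5 of the 10 had an unadjusted p under 0.05, all higher with HA, as did 4.86% of all genes. With voom on recovered fragments and no filter, 0 of the 10 passed and 4 had an unadjusted p under 0.05, all higher with HA, where 0.727% of 16638 genes were called and 5.10% were higher at that unadjusted p. Over the 15 alternative fits, the adjusted p of these genes ran from 0.0714 to 0.211 for S100a8 and from 0.0961 to 0.271 for S100a9.

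The HA values lay wholly above the PBS values in 4 of the 10 genes and wholly below in 0; the same held for 7.90% and 13.8% of all genes of the table. Among the 5893 genes with a mean under 0.5 FPKM, 10.5% had HA wholly above PBS, and among the genes tested 6.47% did. Ngp and Ltf were 2 of the 41 genes (0.246% of the table, and 0.679% of genes with a mean under 0.5 FPKM) with 0 in every PBS library and a value above 0 in every HA library, and 24 genes (0.144%) showed the reverse. The median log2 difference was 0.18 over the 10 genes and -0.01 over all genes of the table. As the 10 were listed with this contrast known, nothing is read from these shares.

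Other neutrophil genes were taken from 4 lists of 39 symbols, of which 28 were matched and 13 tested. In limma 0 of the 13 were called in either direction, and 5 had an unadjusted p under 0.05, as did 17.7% of all genes tested. Of the 28, 6 had HA wholly above PBS and 0 wholly below, against 7.90% and 13.8% of all genes of the table. These lists too were chosen with earlier results known, so nothing is read from these counts. Of the azurophil granule genes, Prtn3, proteinase 3, had the highest level. It stood at 0.342, 0.437 and 0.107 FPKM with PBS and at 27.9, 1.10 and 8.26 FPKM with HA. The groups did not overlap, but the 3 HA livers ranged widely, and the test was not passed (log2 difference 2.68, SE 0.81, adjusted p = 0.158, and 0.0246 to 0.377 over the alternatives). The azurophil markers Mpo, myeloperoxidase, and Elane, neutrophil elastase, did not share this level: Mpo had 0 fragments with PBS and 2, 0 and 5 with HA, and Elane had 3, 9 and 1 with PBS and 13, 5 and 5 with HA.

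Among other granule and cytosol genes, Lcn2, lipocalin 2, which hepatocytes also make in the acute phase, stood at 41.8, 38.7 and 14.4 FPKM with PBS and at 160, 48.2 and 84.6 FPKM with HA (adjusted p = 0.181). HA replicate 1 was highest for both Lcn2 and Prtn3, whereas HA replicate 3 was highest for S100a8, S100a9 and Ngp. Pglyrp1, a peptidoglycan-binding granule protein, was 0.114 ± 0.115 and 0.380 ± 0.123 FPKM without overlap, below the filter. The groups overlapped for Wfdc21, the highest gene of this list, at 599 ± 30.3 and 692 ± 119 FPKM. They also overlapped for Anxa1, at 1.59 ± 0.294 and 2.18 ± 0.743 FPKM. Of the neutrophil surface genes, Fpr1, a receptor for bacterial formyl peptides, was 1.62 ± 0.390 and 2.42 ± 0.406 FPKM and Siglece, an inhibitory lectin, 0.889 ± 0.230 and 1.46 ± 0.268 FPKM, neither past the test (adjusted p = 0.225 and 0.195). Hdc, histidine decarboxylase, had the lower mean in HA, at 0.556 ± 0.132 and 0.371 ± 0.153 FPKM. Fpr2 was 0.577 ± 0.272 and 0.563 ± 0.169 FPKM with overlap. All 6 genes of the NADPH oxidase, which makes the oxidative burst of phagocytes, were tested and 0 passed; Cybb was 1.94 ± 0.472 and 2.84 ± 0.655 FPKM. Ly6g, the usual mouse neutrophil surface marker, was on the surface list, but its symbol was not matched, so no level can be given for it.

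**Figure D3:**
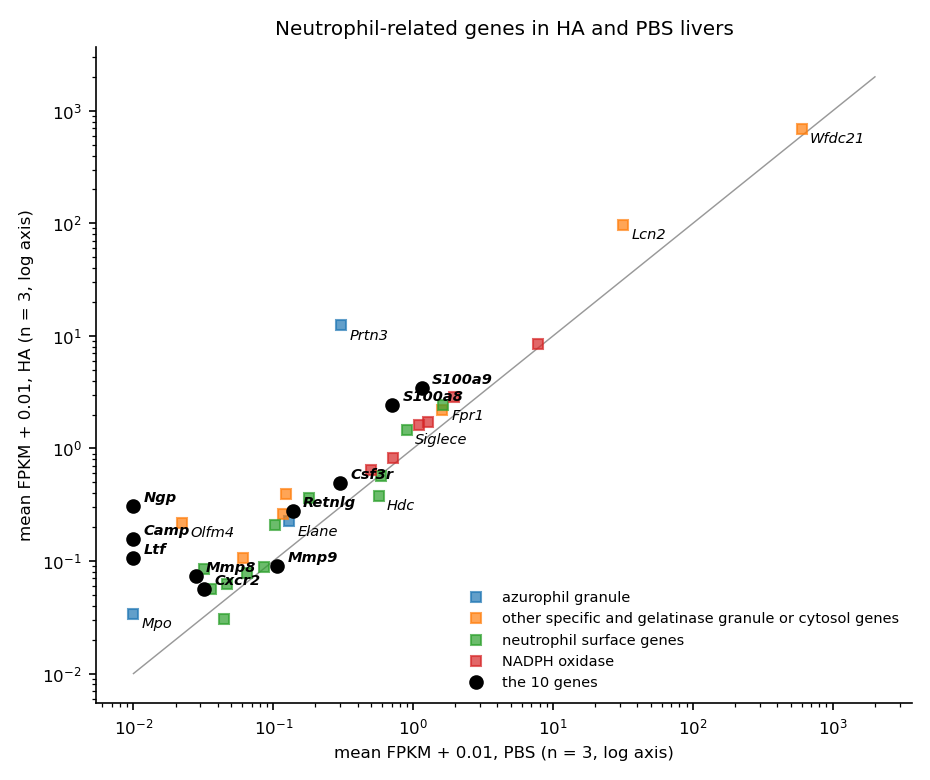
Mean FPKM in HA livers against mean FPKM in PBS livers (n = 3 each, both axes logarithmic, with 0.01 FPKM added so that genes at 0 can be drawn) for the 10 genes in black and 28 other neutrophil genes in colour; the line marks equal means. Ngp, Camp and Ltf sit at the left edge, at 0 in PBS, and Prtn3 lies farthest above the line among the genes seen in PBS.

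On the ligand side, Cxcl1, a neutrophil chemoattractant that binds Cxcr2, was the 1 tested member of 4 matched ligand genes. It stood at 20.7, 6.24 and 4.22 FPKM with PBS and at 19.6, 18.5 and 12.9 FPKM with HA, overlapping through PBS replicate 1 (adjusted p = 0.362). Cxcl2, a second ligand, was lower with HA without overlap, at 0.213 ± 0.0820 and 0.0802 ± 0.0616 FPKM, under the filter. Of 7 receptors and adaptors for calprotectin, 4 were tested and 0 passed, and the groups overlapped for these 4. Their PBS and HA means were 184 and 188 FPKM for Bsg and 8.72 and 7.03 FPKM for Myd88. For Ly96 they were 3.88 and 4.33 FPKM, and for Cd14 1.88 and 2.34 FPKM. Tlr4, its main signalling receptor, was under the filter, at 0.257 ± 0.0527 and 0.431 ± 0.165 FPKM with overlap. The 7 genes summed to 184 to 212 FPKM with PBS and 194 to 215 FPKM with HA. Of 8 matched inflammatory cytokines, 4 were tested and 0 passed, and Il1b was 1.70 ± 0.934 and 1.83 ± 1.24 FPKM.

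Of 6 matched transcription factors of granulopoiesis, 5 were tested and 0 passed. Cebpe, which in marrow drives specific granule genes such as Ltf and Ngp, stood at 6.70, 8.79 and 6.54 FPKM with PBS and at 3.05, 3.68 and 4.52 FPKM with HA. Its groups did not overlap and lay in the opposite order to those of Ngp and Ltf (log2 difference -0.81, SE 0.15, adjusted p = 0.0674). Which cells of the liver held the Cebpe transcripts cannot be told from bulk RNA. A link between Cebpe and the levels of the 10 genes was not tested.

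Of 5 tested inhibitors of the proteases, 1 fell. Serpinb1a, an inhibitor of neutrophil elastase, proteinase 3 and cathepsin G, averaged 10.8 ± 0.727 FPKM in PBS livers (SD, n = 3) and stood at 2.62, 2.21 and 3.20 FPKM in HA replicates 1 to 3, all below PBS. The log2 change was -1.69 (SE 0.12, limma adjusted p = 0.00608, and 0.00213 to 0.0470 over the alternatives). Serpina3n, an acute-phase inhibitor, had the opposite order without overlap, at 271 ± 37.8 FPKM in PBS livers and 386 ± 21.9 FPKM in HA livers (adjusted p = 0.113). The median log2 difference of the 5 tested inhibitors was 0.12, against -0.06 over all genes tested. Of 9 other matrix metalloproteinases, 4 were tested and 0 passed, and of the resistin family 2 genes were matched and 0 tested.

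Of 9 other S100 genes matched, 6 were tested and 0 passed in limma, 2 of them with an unadjusted p under 0.05. S100a10, the annexin A2 partner, had the opposite order without overlap, at 130, 183 and 112 FPKM with PBS and at 89.2, 88.7 and 51.0 FPKM with HA (adjusted p = 0.150). S100a1 averaged 139 FPKM in PBS livers and 128 FPKM in HA livers, with overlap (adjusted p = 0.574). S100a13 and S100a16 had the lower mean in HA, with overlap (log2 difference -0.248 and -0.174). S100a4, also found in leukocytes, was 0.718 ± 0.174 and 1.33 ± 0.213 FPKM, with HA above PBS in all livers (adjusted p = 0.124). S100a4 was the 1 gene of the 9 with that order. The 9 genes summed to 294 to 380 FPKM with PBS and 211 to 258 FPKM with HA, without overlap. The median log2 difference of the 6 tested genes was -0.148.

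Markers of other blood and immune cells were set beside these values. The summed level of 7 red blood cell genes was 227 to 335 FPKM with PBS and 700 to 1320 FPKM with HA, and 3 of its 5 tested genes rose. They were Hba-a1 (3.98-fold), Hbb-bt (5.02-fold) and Hba-a2, with adjusted p = 0.0272, 0.0324 and 0.0325 in limma; the adjusted p of Hba-a1 ran from 0.0101 to 0.109 over the alternatives. Globin copies share fragments, so single globin values are uncertain. Of the 7 genes 6 had HA wholly above PBS and 1 wholly below. The latter was Alas2, at 40.8 ± 4.59 and 35.1 ± 1.29 FPKM (limma adjusted p = 0.364). The summed level of 11 Kupffer cell and macrophage genes was 148 to 175 FPKM with PBS and 163 to 299 FPKM with HA, with 0 of 11 past the test and HA replicate 3 the highest, as for S100a8 and S100a9. The 7 monocyte genes summed to 3.09 to 4.39 and 4.17 to 4.95 FPKM, with 0 of 4 tested past the threshold.

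For T and NK cells, 8 genes summed to 1.08 to 2.55 FPKM with PBS and 1.49 to 3.15 FPKM with HA. For B and plasma cells, 5 genes summed to 2.28 to 4.59 and 4.42 to 7.18 FPKM, and for platelets 3 genes summed to 0.918 to 1.54 and 1.57 to 2.19 FPKM. Erythroid precursor and stem cell genes, 7 in number, summed to 6.83 to 7.77 FPKM with PBS and 4.45 to 5.77 FPKM with HA, and the precursor factor Gata1 was at 0 in all libraries except HA replicate 1. In these 4 lists 0 tested genes passed. Of the basophil, mast cell and eosinophil list 2 of 8 genes were matched and 0 tested, and 0 of 9 tested adrenal and muscle genes passed. The 6 hepatocyte genes summed to 50855 to 62085 FPKM with PBS and 77182 to 92899 FPKM with HA, with 0 past the test. The part that blood content, red cells or other leukocytes play in the levels of the 10 genes was not tested.

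**Figure D4:**
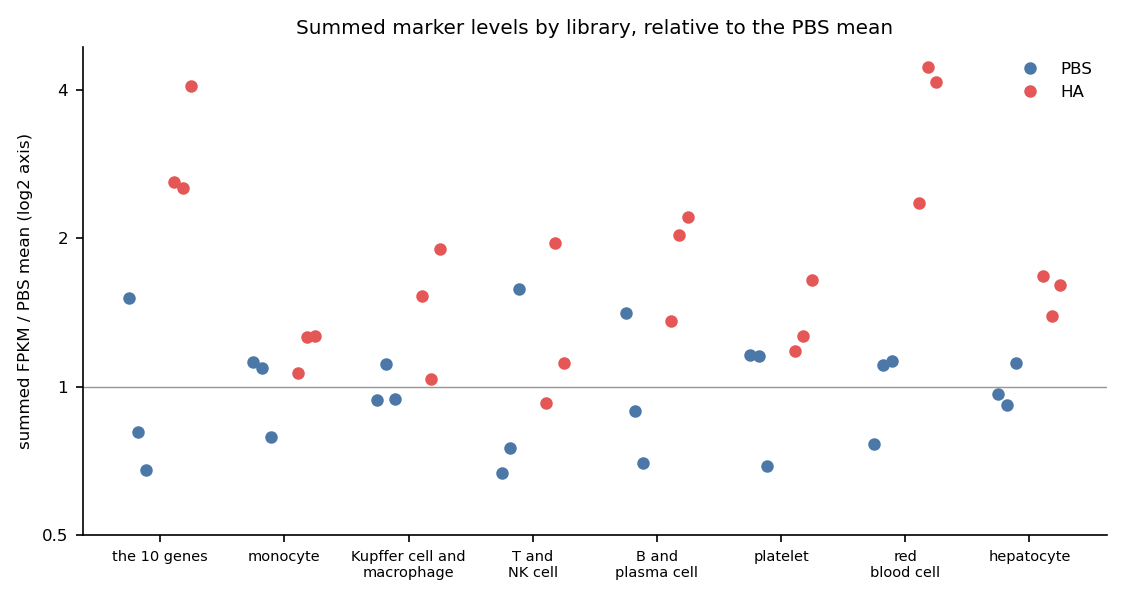
Summed FPKM of the 10 genes and of 7 marker lists in each library, divided by the PBS mean of that list (log2 axis; points are libraries, 3 PBS and 3 HA per list). The 10 genes and the red blood cell, platelet and hepatocyte lists have all HA points above the PBS points; the monocyte, Kupffer cell, T and NK cell and B and plasma cell lists overlap.

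After each group mean was removed, the genes whose log2(FPKM + 1) followed the mean of the 10 genes most closely over the 6 libraries included Vps13d (Pearson r = 0.9995), Rcc1 (0.990), Selplg (0.986) and Cog2 (0.985). Selplg, which encodes a selectin ligand on leukocytes, stood at 1.11, 0.624 and 0.477 FPKM with PBS and at 0.548, 0.535 and 1.28 FPKM with HA. Between the groups the order could differ from that of the 10 genes. Vps13d was wholly lower with HA, at 4.53 to 5.07 FPKM against 5.74 to 6.42 FPKM with PBS. So was Cog2, at 5.68 to 6.19 against 6.41 to 6.89 FPKM. The 6 points share their libraries and depth, the r values are the highest picked from all genes tested, and the likeness is a description.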

How the data were processed

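RNA of 6 mouse livers (3 HA, 3 PBS, grouped by the treatment label) was sequenced. The authors deposited 1 table of FPKM values, 1 column per library; the unit was read from the values. Per the submitters' processing notes, Trimmomatic and HISAT2 were used with build GRCm39; no source used here gives the counter, the annotation or the use of strand. Per the labels' protocols, 2 library kits are named without saying which was used where.

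Whole fragments, library totals and gene lengths were recovered from ratios of low values; all 99828 values (100%) came out whole within 0.0001. A factor common to all libraries can remain in a gene's fragments. Depth was 37921444 to 39908844 fragments.

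Tests were two-sided, in limma 3.58.1 (R 4.3.3), with log2(FPKM + 1) as the value, a variance trend and no covariate beside treatment, over 10745 genes averaging 0.5 FPKM or more, with Benjamini-Hochberg adjustment over all genes tested and a threshold of 0.05. Both the fit and the recovery were tried on simulated data. The fit called 37.3% of genes given a change of 1.5-fold, 85.1% at 2-fold and 100% at 4-fold. Only genes past the filter were given a change, so these shares do not cover members under it. The members and the 22 lists were chosen with earlier results of these data known. Named were all members, and of each list genes among the 4 with the highest mean FPKM plus every gene called. S100a4, Tlr4, Gata1 and Alas2 fall outside that rule: they were picked with their values in view. The 5 genes most like the members were taken by rule, of which 1 is not reported here. Alternatives were another pseudocount, filters, scalings, no trend, voom, a replicate block and leaving out each library.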

Additional observations from a re-analysis of the deposited data

How the results depend on the processing

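No gene of the 10 was called in the 2 alternative fits that tested all 10, nor S100a8 or S100a9 in the 13 that tested only those, and the log2 ratio of the sum stayed between 1.19 (fragments scaled to depth) and 2.04 (without PBS replicate 1), against 1.62; leaving out single libraries gave 1.36 to 2.04. Counts over all genes, 31 higher and 55 lower with HA, were less stable. With no filter they were 7 and 10, and with a replicate block 7 and 9. The lower count was 32 after median centring, 24 with scaling outside Alb and 83 with voom on recovered fragments and no filter, chosen after seeing the data. The higher counts there were 36, 33 and 38. Leaving out single libraries gave 1 to 46 higher and 4 to 69 lower, and 1 to 7 of the genes of the lists called against 4; with no filter 1 was called. The median of all genes tested was -0.06 on the log2 scale and 0.00261 with scaling outside Alb. Same-numbered libraries had r = -0.138, -0.125 and 0.176, and differently numbered ones had r from -0.134 to 0.217. Taken from deviations around means of 3 libraries, these values cannot show whether the numbers pair the samples. Under the replicate block S100a8 and S100a9 had limma adjusted p = 0.160 and 0.200. Low counts limit 8 of the 10 genes.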
